A study of Mus musculus with 6 samples.

Results

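The integrated stress response and the amino acid genes that it governs were described in sorted pancreatic acinar cells after cerulein, a peptide that mimics cholecystokinin and, given in excess, brings on pancreatitis in rodents. The set was a fixed list of 45 genes, chosen by name and not by their values, out of 21949 genes in the deposited table: 7 factors of the Atf4 axis, 4 stress effectors, 3 secreted or surface products, 6 enzymes of serine and one-carbon metabolism, 5 of other amino acid synthesis, 2 of creatine synthesis, 7 transporters and 11 tRNA synthetases. Of these, 44 were listed under the same symbol, and Mars1 was listed under its older symbol Mars.

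There were 6 libraries, 3 from controls and 3 from cerulein-treated mice, all made from total RNA depleted of ribosomal RNA. All mice were adults of a CD1-enriched background with the genotype ElastaseCreER/ROSA26YFP, so that a Cre driven by the acinar elastase promoter can turn on a fluorescent reporter. The controls were labelled WT and the others WT+Cerulein. Cerulein was given as 7 injections on each treatment day, on alternate days over 3 days, with 1 day of recovery before the cells were isolated by digestion and flow sorting. The labels give no further treatment of the controls and no gate for the sort, and do not say whether libraries of a group come from different mice. The spread behind every p-value is that between libraries and may be technical.

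In the integrated stress response, kinases that sense misfolded proteins, amino acid shortage or other stress phosphorylate the translation factor eIF2, which slows most protein synthesis and favours translation of the transcription factor Atf4. Atf4 is controlled largely at translation, so its mRNA level is not a direct readout of its activity. With partners of the C/EBP family Atf4 binds composite elements in the promoters of genes for amino acid synthesis, amino acid uptake and tRNA charging, and of stress regulators such as Ddit3 and Trib3. Acinar cells make large amounts of secreted protein and so depend on amino acid supply, and the pancreas is a known site of creatine synthesis.

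The promoters show how unevenly exact matches to the core of the classical Atf4 element are spread over these genes. RefSeq promoter windows of build GRCm38.p6 were at hand for 39 of the 45 genes, and the 250 bases before each start were searched on both strands for TGATGNAA, the core of the C/EBP-ATF element. It was found for 10 of the 39 genes (25.6%), against 3.91% of the 27025 genes with a window. The stretches below show the core in capitals, with 10 bases on each side, on the strand of the gene. In all of these but Asns, Pycr1 and the first site of Slc7a11 the core lies on the other strand, so that it reads from its reverse complement.
Asns, chr6:7693215-7693242: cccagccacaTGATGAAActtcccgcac
Gars, chr6:55037961-55037988: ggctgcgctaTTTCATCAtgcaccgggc
Nupr1, chr7:126625563-126625590: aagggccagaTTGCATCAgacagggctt
Chac1, chr2:119351039-119351066: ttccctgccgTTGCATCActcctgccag
Pycr1, chr11:120643834-120643861: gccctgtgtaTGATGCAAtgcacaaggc
Slc7a11, first site, chr3:50443662-50443689: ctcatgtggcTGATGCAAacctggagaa
Slc7a11, second site, chr3:50443643-50443670: cctggagaatTTGCATCAtcatgcagcc
Vldlr, chr19:27216810-27216837: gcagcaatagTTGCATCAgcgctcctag
Sites of the other genes with the core, Got1 and Tars among them, are not shown. Slc7a11 was the only one of the 10 with 2 sites in its window. The sites began between 15 bases (Tars) and 200 bases (Vldlr) before the start, at 23 bases for Asns and 30 for Gars. A different element, the cyclic AMP response element TGACGTCA, was found in this window only for Ppp1r15a among the 39 genes, against 1.77% of all genes. A match of letters is a description of the window and does not show that a factor binds there.

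The whole windows of 3 genes are given as examples. Asns is a gene in which the element is well known, Trib3 was the one gene of the list that rose, and Slc38a5 was the gene that fell most. The core is in capitals in Asns, and neither of the others holds an exact match in this window. Elements that differ from the core by a letter, or that lie outside the window, were not searched for. Each reads along the strand of its gene, which is the minus strand for Asns and Trib3 and the plus strand for Slc38a5.
Asns, chr6:7693210-7693459: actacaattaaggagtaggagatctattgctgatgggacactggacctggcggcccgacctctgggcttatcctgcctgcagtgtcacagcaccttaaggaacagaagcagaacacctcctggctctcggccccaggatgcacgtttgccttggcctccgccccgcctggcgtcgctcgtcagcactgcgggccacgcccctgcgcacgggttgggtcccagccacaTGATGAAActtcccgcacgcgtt
Trib3, chr2:152344061-152344310: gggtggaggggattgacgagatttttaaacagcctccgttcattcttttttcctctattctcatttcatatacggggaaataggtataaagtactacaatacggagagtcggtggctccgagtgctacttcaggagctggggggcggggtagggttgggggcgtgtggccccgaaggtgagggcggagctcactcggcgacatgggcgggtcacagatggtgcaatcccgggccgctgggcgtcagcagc
Slc38a5, chrX:8271131-8271380: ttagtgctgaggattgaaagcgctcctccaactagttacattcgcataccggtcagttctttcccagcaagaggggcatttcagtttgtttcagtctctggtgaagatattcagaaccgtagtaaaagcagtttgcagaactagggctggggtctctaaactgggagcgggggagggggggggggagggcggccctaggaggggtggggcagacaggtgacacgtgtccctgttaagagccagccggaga

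Expression is given as FPKM, fragments scaled to transcript length and to a factor per library, summed over the transcripts of a gene. Many deposited values had lost their decimal mark, and the mark was put back where whole numbers of fragments and the replicates of the same group left 1 placement. This gave a value in all 6 libraries for 36 of the 45 genes, and all 36 passed the low-value filter (FPKM of at least 1 in at least 3 libraries) and were tested. At a transcript length of 2000 bases, 1 FPKM stood for 6.45 to 8.09 fragments in control and 23.1 to 34.0 in cerulein libraries, so low values were less precise in controls. Differences were tested by limma on log2(FPKM + 1), with Benjamini-Hochberg adjustment over all 6934 genes tested, and a gene is said to have risen or fallen at an adjusted p under 0.05. A fold change on this scale understates the change of genes near 1 FPKM. Counts at an unadjusted p under 0.05, and by a second fit, limma-voom on recovered fragments, are given without the share over all genes. No excess is read from them.

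After cerulein, 2 amino acid transporters, both enzymes of creatine synthesis, the folate enzyme Aldh1l2, Vldlr and Stc2 fell and Trib3 rose, while Atf4, Asns and the tRNA synthetases did not pass the test. Of the 36 genes tested, 1 rose (6.55% of all genes tested rose) and 7 fell (5.34% of all genes tested fell), while 28 did not pass. The median log2 fold change was 0.10 for the list and 0.09 for all genes tested. By restored values, 5 genes lay above every control in all cerulein libraries (17.5% of all genes tested did) and 8 lay below (14.7% of all genes tested did).

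**Figure D1:**
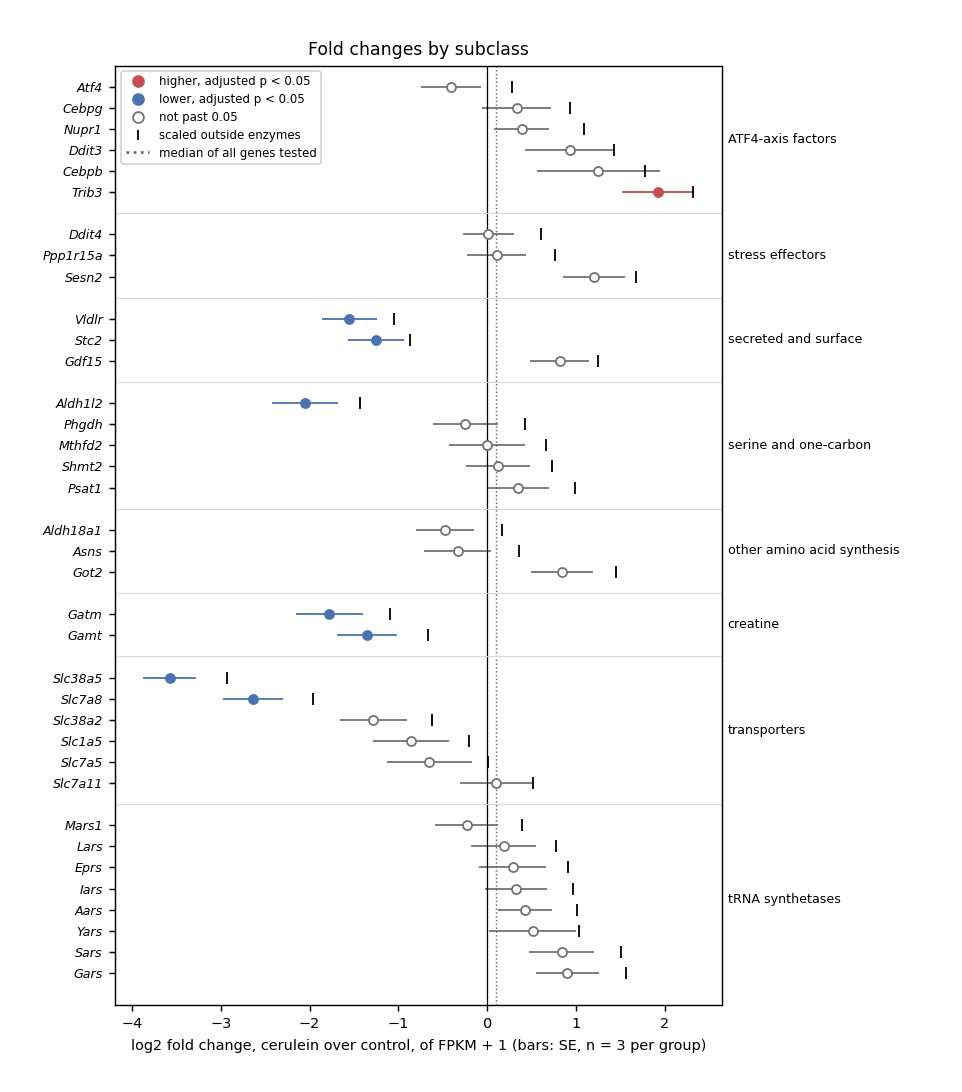
Log2 fold change of FPKM + 1, cerulein over control, for the 36 tested genes by subclass, with SE (3 libraries per group). Filled points passed an adjusted p of 0.05, black ticks give the value under a scaling outside the digestive enzymes, and the dotted line is the median of all genes tested (0.09). The 7 genes that fell stay left of zero under that scaling, and all ticks lie to the right of their points.

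The libraries also differed in makeup. Markers of other cell types moved with cerulein. Of 12 tested macrophage and leukocyte markers 9 rose, and their summed FPKM over 12 restored genes was 1.48 to 30.4 in controls and 70.2 to 147 in cerulein. Of 10 tested fibroblast and matrix markers 5 rose, with sums of 1.00 to 141.2 and 138.4 to 228.3. Of 6 tested duct markers 4 rose and 1 fell, with sums of 25.8 to 55.2 and 235.4 to 248.4. Of 17 tested acinar markers 16 fell, with sums of 452700 to 473100 and 61300 to 112100, so the labelled cell type was present in every library. The 8 endothelial markers summed to 0 to 21.0 in controls and 3.91 to 4.95 in cerulein, and the 3 restored islet markers of 8 to 20.4 to 33.0 and 15.7 to 32.4. At 0 were Emcn in every cerulein library, Timp1 in every control library and 8 of the 12 macrophage markers in at least 1 control library. Control 1 held most of the matrix and endothelial signal of the controls. Calls moved when 1 library was left out, with 0 to 3 of the 36 genes that rose and 2 to 8 that fell. Over all genes tested the same fits gave 123 to 930 that rose and 78 to 616 that fell. In bulk RNA, fewer cells of a type and less RNA per cell cannot be told apart, and the part of these markers in the results was not tested.

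Digestive enzymes held 84.9% to 85.2% of the restored FPKM in controls and 62.1% to 70.5% in cerulein. The restored FPKM summed to 684101 to 733692 in controls and to 163411 to 230039 in cerulein, so the deposited values do not share 1 total per library. On the deposited scale the median gene was at nearly the same level in every library, with median-of-ratios factors of 0.991 to 1.016. Scaling each library instead to the sum outside the enzymes moved the median log2 fold change of all genes tested from 0.09 to 0.57. Under that scaling 9 of the 36 genes rose (25.4% of all genes tested rose) and 5 fell (2.73% of all genes tested fell). Scaled to the sum of all restored genes, which moved that median to 1.34, 27 rose and only Slc38a5 and Slc7a8 fell. Their falls were 1.85 and 0.86 on the log2 scale. Most of all genes tested also rose under that scaling, with counts given in the last section. Directions below hold on the deposited scale, and signs that turned under the scaling outside the enzymes are given beside the values.

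Among the factors of the Atf4 axis, the pseudokinase Trib3, a target of Atf4 and Ddit3 that feeds back on Atf4, was the one that rose. Trib3 (chromosome 2, 152337422 to 152344032) had 0.918, 0 and 0.975 FPKM in Control 1, 2 and 3 and 8.73, 3.82 and 3.42 in Cerulein 1, 2 and 3. Every cerulein library lay above every control, Cerulein 1 most. These values rest on 6, 0 and 8 fragments in controls and on 205, 112 and 118 in cerulein. The log2 fold change was 1.92 (SE 0.41, limma adjusted p = 0.0151, n = 3 per group), with means of 0.631 ± 0.547 and 5.32 ± 2.96 FPKM (SD). Trib3 was the only one of the 45 genes whose groups stayed apart whatever the placement of lost decimal marks (3.76% of 8940 genes lay above every control in that way). None of the 36 tested genes lay below every control in that way (1.88% of the 8940 genes did). Trib3 missed the threshold without Control 2, Cerulein 1 or Cerulein 2, on a pseudocount of 0.1, and with low genes kept in, and its limma adjusted p over all alternatives was 2e-05 to 0.0758.

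Atf4 itself (chromosome 15, 80255184 to 80257541) had 47.1, 73.4 and 101.9 FPKM in controls and 55.6, 54.5 and 49.7 in cerulein. The cerulein values lay inside the range of the controls, which spread more than they did. The log2 fold change was -0.40 (SE 0.34, limma adjusted p = 0.485), and 0.28 when scaled outside the enzymes. The most abundant factor was Nupr1, a small stress-induced chromatin protein first described in pancreatitis (chromosome 7, 126623249 to 126630861). Its deposited values had kept their marks, at 1004, 1208 and 1064 FPKM in controls and 1582, 1606 and 1141 in cerulein. Cerulein 1 and 2 lay above all controls, and Cerulein 3 lay between Control 2 and Control 3. The log2 fold change was 0.39 (SE 0.31, limma adjusted p = 0.457).

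The proapoptotic factor Ddit3 (CHOP) had 6.45, 0.695 and 1.59 FPKM in controls, on 11, 2 and 5 fragments, and 7.30, 3.95 and 4.49 in cerulein (log2 fold change 0.93, SE 0.50, limma adjusted p = 0.265). Control 1 was as high as the cerulein libraries, and without Control 1 Ddit3 passed (log2 fold change 1.54, limma adjusted p = 0.0139). Cebpb, a partner of Atf4 and Ddit3, ranged from 0.372 to 9.35 FPKM in controls and from 5.40 to 20.1 in cerulein, and Cebpg, another partner, from 2.95 to 9.62 and from 5.88 to 9.46. Their groups overlapped, and neither passed. The exons of Ddit3, Cebpb and Cebpg overlap those of other genes in the annotation, and use of strand in the counting is not stated, so these values are uncertain. Atf5, a second factor under the same translational control, could not be restored in any library.

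**Figure D2:**
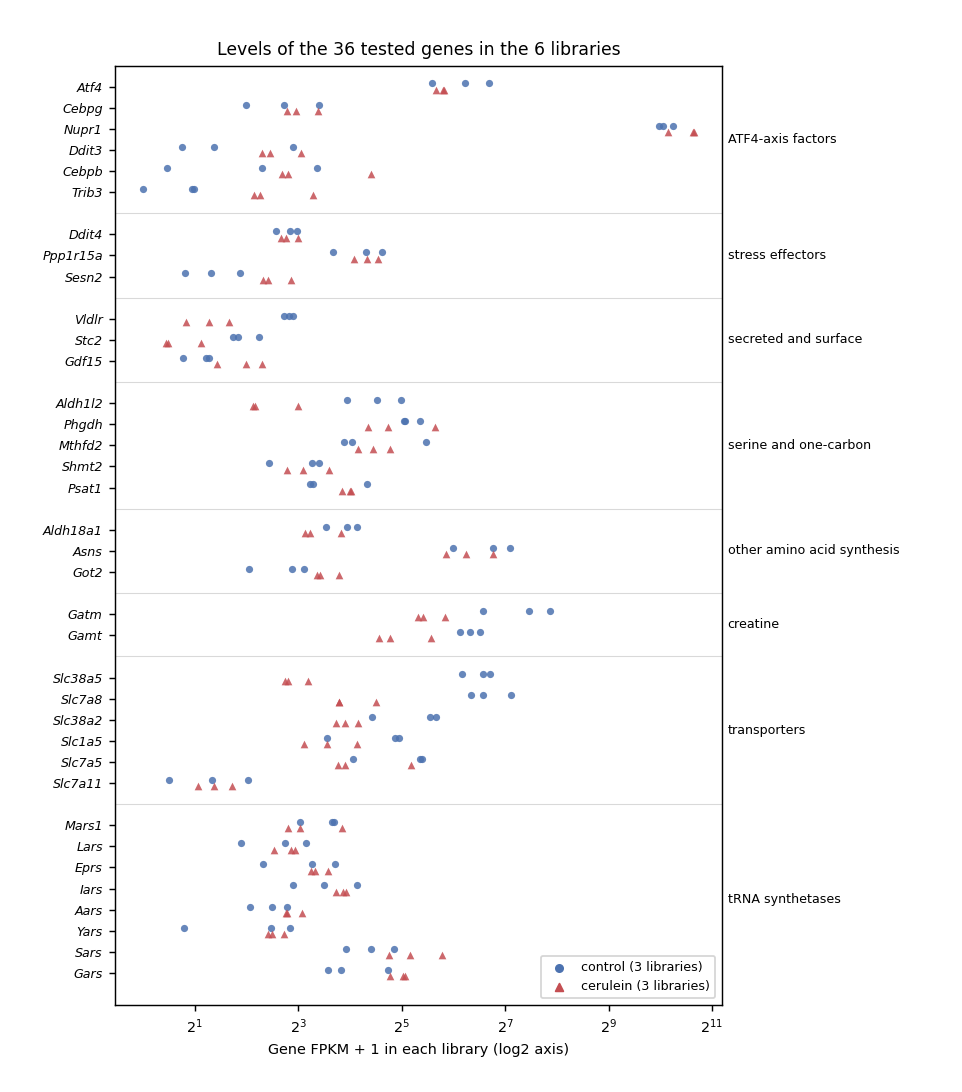
FPKM + 1 of the 36 tested genes in each library, on a log2 axis, with circles for the 3 control and triangles for the 3 cerulein libraries, by subclass. Levels run from Trib3, at 0 in Control 2, to Nupr1, at 1606 in Cerulein 2, and the groups separate most for Slc38a5 and Slc7a8.

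Of the stress effectors, none of the 3 tested passed by limma, while 1 had an unadjusted p under 0.05, and limma-voom on recovered fragments called 1 higher, Sesn2. Sesn2, a leucine sensor that restrains the growth kinase complex mTORC1, had 2.67, 0.747 and 1.499 FPKM in controls and 6.23, 4.36 and 4.02 in cerulein. Every cerulein library lay above every control. The log2 fold change was 1.20 (SE 0.35, limma adjusted p = 0.0515), past the threshold in 6 of 15 alternatives. The most abundant of the tested effectors was Ppp1r15a (GADD34), the phosphatase subunit that reverses eIF2 phosphorylation (chromosome 7, 45522916 to 45526268, exons overlapping Tulp2 on the other strand). It had 18.9, 23.7 and 11.8 FPKM in controls and 15.9, 22.3 and 19.02 in cerulein. The groups overlapped, and the test gave 0.11 on the log2 scale (SE 0.33, limma adjusted p = 0.866). Ddit4, an mTORC1 inhibitor, lay between 4.91 and 6.95 FPKM in all 6 libraries (log2 fold change 0.01, SE 0.29, limma adjusted p = 0.981). Chac1, an enzyme that breaks down glutathione, had 35.4, 28.9 and 74.02 FPKM in controls and 9.10 and 14.9 in Cerulein 2 and 3. Its value in Cerulein 1 was not placed and lies between 2.54 and 254 FPKM, so Chac1 was not tested.

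Of the 3 secreted and surface products, 2 fell and 1 did not pass. Vldlr, a receptor for triglyceride-rich lipoproteins (chromosome 19, 27216484 to 27254231), had 6.44, 6.05 and 5.58 FPKM in controls and 2.17, 0.768 and 1.43 in cerulein. Its controls lay close together and above every cerulein library. Vldlr fell by 1.55 on the log2 scale (SE 0.31, limma adjusted p = 0.0128). It did not pass without Cerulein 2 or Cerulein 3, or scaled to the sum of all restored genes (range over alternatives 0.000378 to 0.557).

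Stc2, a secreted stanniocalcin (chromosome 11, 31357307 to 31370074), had 2.34, 3.73 and 2.57 FPKM in controls and 1.17, 0.398 and 0.367 in cerulein, on 31, 57 and 43 and on 56, 24 and 26 fragments. Every cerulein library lay below every control. Stc2 fell by 1.25 (SE 0.31, limma adjusted p = 0.0305). It did not pass on a pseudocount of 0.1, with low genes kept in, or without Control 2, Cerulein 2 or Cerulein 3. Nor did it pass under the scaling outside the enzymes or to the sum of all restored genes (range over alternatives 0.00505 to 0.451). The stress cytokine Gdf15 was at 0.702, 1.437 and 1.32 FPKM on 3, 7 and 8 fragments in controls and at 3.92, 2.96 and 1.69 in cerulein. Its groups did not overlap, but its log2 fold change of 0.82 (SE 0.33) did not pass at a limma adjusted p of 0.139.

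In serine and one-carbon metabolism, 1 of the 5 tested enzymes fell and 4 did not pass. Aldh1l2, the mitochondrial enzyme that oxidises formyl-tetrahydrofolate (chromosome 10, 83487450 to 83534140), had 14.4, 22.1 and 30.6 FPKM in controls and 7.00, 3.50 and 3.36 in cerulein. Every cerulein library lay below every control, and Cerulein 1 was the highest of its group. Aldh1l2 fell by 2.05 (SE 0.37, limma adjusted p = 0.00874). It did not pass without Cerulein 2 or Cerulein 3, or scaled to the sum of all restored genes (range over alternatives 0.00131 to 0.285). Its exons overlap those of D10Wsu102e on the other strand, so its value is uncertain.

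The enzymes that make serine and feed the same mitochondrial pathway did not pass. Phgdh, which commits glycolytic carbon to serine (chromosome 3, 98313170 to 98339990), was the most abundant, at 32.4, 40.2 and 31.9 FPKM in controls and 48.9, 25.5 and 19.5 in cerulein. Cerulein 1 lay above and the other cerulein libraries below the controls (-0.25 on the log2 scale, SE 0.37, limma adjusted p = 0.703), and the sign turned to 0.43 when scaled outside the enzymes. Psat1, the aminotransferase that follows Phgdh, ranged from 8.37 to 18.99 FPKM in controls and from 13.3 to 15.3 in cerulein. Shmt2, which splits serine in mitochondria, ranged from 4.404 to 9.52 and from 5.90 to 11.1, and its exons overlap those of Ndufa4l2 on the other strand. Mthfd2, which works on the folate unit made by Shmt2, ranged from 13.7 to 43.1 and from 16.8 to 26.3 with a log2 fold change near zero (-0.003, and 0.66 when scaled outside the enzymes). The phosphatase Psph, the last step of serine synthesis, had 1.82 and 4.78 FPKM in Control 1 and 3 and 2.48 to 4.27 in cerulein, with Control 2 not placed.

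Of the other enzymes of amino acid synthesis, none of the 3 tested passed by limma, while 1 had an unadjusted p under 0.05 and limma-voom called none. Asns, asparagine synthetase and the model target of Atf4 (chromosome 6, 7675169 to 7693254), had 62.8, 107 and 136.5 FPKM in controls and 107, 74.8 and 57.3 in cerulein. The groups overlapped, with Control 1 close to Cerulein 3 and Cerulein 1 close to Control 2. The log2 fold change was -0.33 (SE 0.38, limma adjusted p = 0.619), and 0.36 when scaled outside the enzymes. Aldh18a1, which starts proline synthesis from glutamate, ranged from 10.6 to 16.5 FPKM in controls and from 7.71 to 13.3 in cerulein, and its sign also turned under that scaling (-0.48 to 0.16).

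Got2, the mitochondrial aspartate aminotransferase, had 6.38, 3.14 and 7.65 FPKM in controls and 12.8, 9.74 and 9.30 in cerulein, with no overlap (log2 fold change 0.84, SE 0.35, limma adjusted p = 0.148). Got1, its cytosolic counterpart, had 3.76 and 7.90 FPKM in Control 1 and 3 and 5.47 to 8.75 in cerulein, and Control 2 was not placed. Pycr1, the last step of mitochondrial proline synthesis, had 50.1 and 45.2 FPKM in Control 1 and 3 and 15.6, 10.2 and 10.3 in cerulein. Control 2 lies between 11.0 and 1100 FPKM for Pycr1, so it was not tested.

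Both enzymes of creatine synthesis fell. Gatm, which transfers the amidino group of arginine to glycine (chromosome 2, 122594467 to 122611303), had 94.5, 175 and 232 FPKM in controls and 56.1, 41.7 and 38.6 in cerulein. Gatm was below every control in all cerulein libraries, and Control 1 was the nearest to them. It fell by 1.78 (SE 0.38, limma adjusted p = 0.0151), with means of 167 ± 68.9 and 45.5 ± 9.33 FPKM (SD, n = 3). Gamt, which methylates the product to creatine (chromosome 10, 80258151 to 80261012), had 78.7, 69.0 and 91.0 FPKM in controls and 46.2, 26.4 and 22.7 in cerulein, again without overlap. Gamt fell by 1.35 (SE 0.34, limma adjusted p = 0.0307).

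Leaving out 1 library at a time kept both log2 fold changes negative, from -2.14 to -1.499 for Gatm and from -1.65 to -1.15 for Gamt, while some calls were lost. Gatm did not pass without Control 2, Cerulein 2 or Cerulein 3 or with no filter (range over alternatives 0.00224 to 0.934). It also did not pass when scaled to the sum of all restored genes, where its log2 fold change was 0.032. Gamt did not pass without Control 2, Control 3, Cerulein 2 or Cerulein 3, or with no filter (range 0.0122 to 0.222). Nor did it pass under the scaling outside the enzymes, where its log2 fold change was -0.67. Scaled to the sum of all restored genes it was 0.44 and did not pass. Against the median of all genes under the scaling outside the enzymes, 0.57, both enzymes still lay lower.

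**Figure D3:**
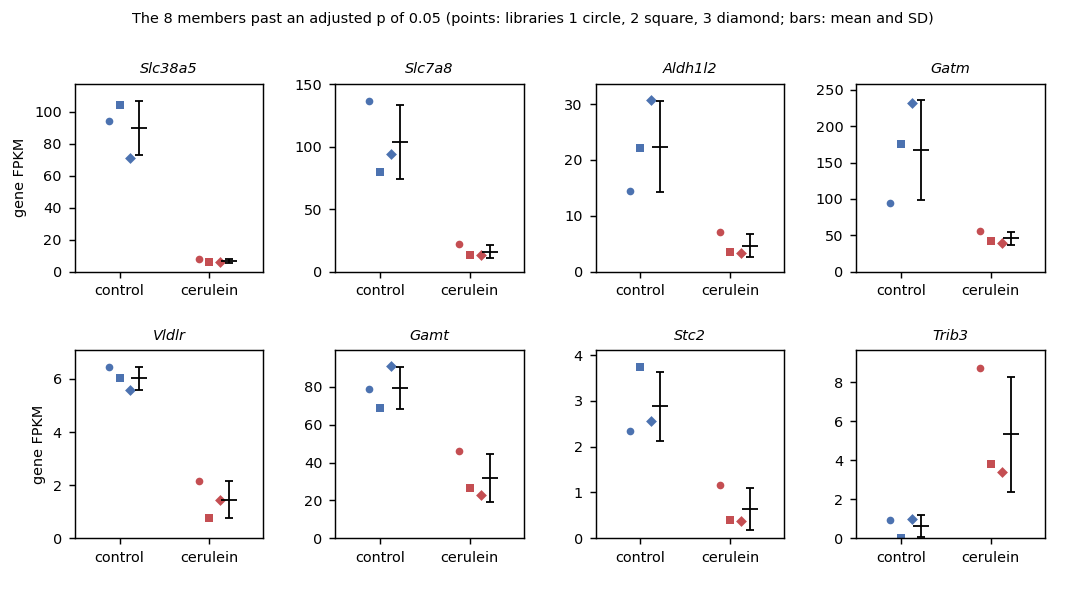
FPKM in each library for the 8 genes past an adjusted p of 0.05, with mean and SD of 3 libraries per group. The groups do not overlap in any panel, and Cerulein 1 (circle) is the highest cerulein library in each.

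The amino acid transporters held the largest falls of the list. Slc38a5, a sodium-coupled carrier of glutamine, asparagine, serine and glycine (chromosome X, 8271133 to 8280179), had 94.2, 104 and 70.8 FPKM in controls and 8.08, 5.95 and 5.70 in cerulein. The lowest control lay far above the highest cerulein library. The values rest on 532 to 708 fragments in controls and 161 to 179 in cerulein, where 1 FPKM stood for more fragments. Slc38a5 fell by 3.58 (SE 0.30, limma adjusted p = 0.000196), from 89.7 ± 17.1 to 6.58 ± 1.31 FPKM (SD, n = 3). Slc7a8 (LAT2), an exchanger of neutral amino acids (chromosome 14, 54722209 to 54781946), had 137, 79.8 and 94.3 FPKM in controls and 21.8, 12.9 and 12.9 in cerulein. These groups lay apart as well, and Slc7a8 fell by 2.64 (SE 0.34, limma adjusted p = 0.00194). These were the 2 genes of the list that passed in every alternative that gave them a value, with log2 fold changes of -2.93 and -1.96 when scaled outside the enzymes. Of 17 alternatives, 15 gave a value for Slc38a5 and 14 for Slc7a8. Neither had a value with intact values only or with a wider replicate spread allowed in restoring. Slc7a8 also had none at the stricter posterior of 0.99. Their calls were therefore not checked against those restoration settings.

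Slc38a2 (SNAT2), the carrier that Atf4 raises in amino acid shortage, had 20.4, 45.8 and 49.8 FPKM in controls and 12.2, 14.0 and 16.8 in cerulein. Its groups did not overlap, but its log2 fold change of -1.28 (SE 0.38) did not pass at a limma adjusted p of 0.0530, and it passed in 5 of 15 alternatives. Slc1a5 (ASCT2), a glutamine exchanger, ranged from 10.8 to 29.8 FPKM in controls and from 7.69 to 16.6 in cerulein. Slc7a5 (LAT1), the other light chain for neutral amino acids, ranged from 15.6 to 41.2 and from 12.6 to 35.1, with a log2 fold change of -0.65 that was 0.01 when scaled outside the enzymes. Slc7a11, the cystine carrier whose promoter holds the 2 sites shown above, was low, at 0.410 to 3.08 FPKM in controls and 1.09 to 2.29 in cerulein. Slc3a2, the heavy chain that Slc7a5, Slc7a8 and Slc7a11 need at the membrane, had 79.4, 54.1 and 96.4 FPKM in controls, and none of its cerulein values could be placed. Over the 6 tested transporters 2 fell, none rose and 5 of 6 log2 fold changes were negative, with a median of -1.07 against 0.09 for all genes tested, or -0.41 against 0.57 when scaled outside the enzymes.

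The tRNA synthetases, which charge tRNAs with their amino acids, lay mostly above zero without passing the test. None of the 8 tested passed by limma and limma-voom called none, while 2 had an unadjusted p under 0.05. Of the 8, 7 had a positive log2 fold change, with a median of 0.38 against 0.09 for all genes tested. Sars, the seryl enzyme (chromosome 3, 108424865 to 108445209), was the most abundant of those tested, at 14.3, 20.2 and 27.8 FPKM in controls and 53.8, 34.7 and 26.1 in cerulein. Control 3 overlapped Cerulein 3 (log2 fold change 0.84, SE 0.37, limma adjusted p = 0.173). Gars, the glycyl enzyme, had 10.9, 13.2 and 25.7 FPKM in controls and 32.3, 31.5 and 26.5 in cerulein, without overlap (log2 fold change 0.90, SE 0.35, limma adjusted p = 0.130). Gars passed without Control 3 (limma adjusted p = 0.0319).

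The other 6 synthetases stayed between 0.722 FPKM (Yars in Control 2, on 8 fragments) and 16.5 FPKM (Iars in Control 3), with log2 fold changes of 0.19 to 0.51 for Aars, Iars, Eprs, Yars and Lars. Mars1 had -0.23, which was 0.39 when scaled outside the enzymes. Under that scaling all 8 were positive, with a median of 0.99 against 0.57, and Aars, Gars and Sars passed. Exons of Aars, Yars and Mars1 overlap those of other genes, Mars1 with Ddit3 on the other strand. Nars, Wars and Tars were not restored. Nars had 40.1 and 36.7 FPKM in Control 2 and 3 and 32.0 to 34.6 in cerulein.

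**Figure D4:**
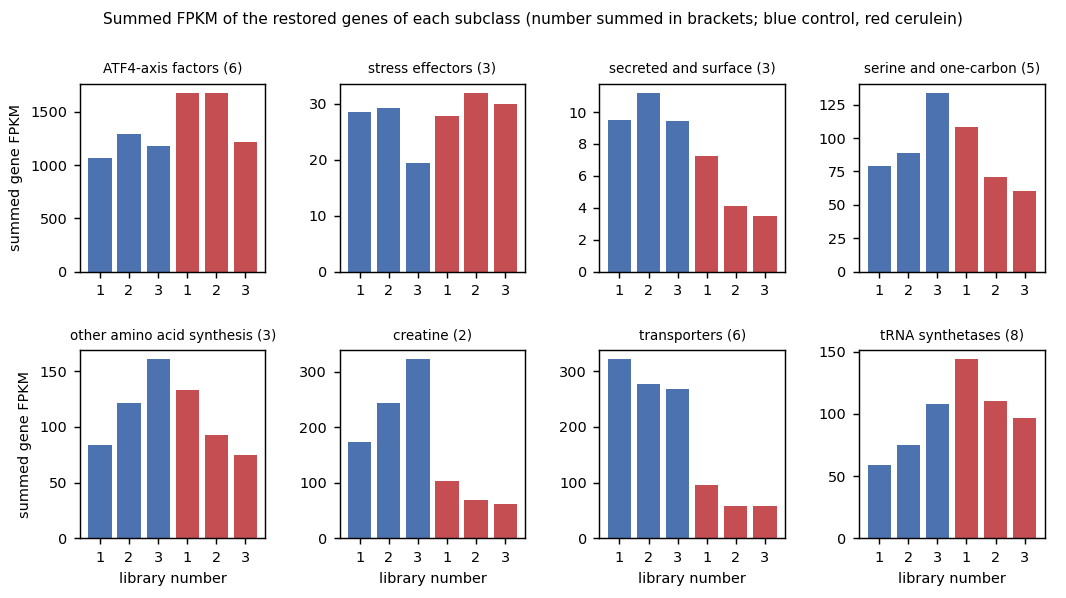
Summed FPKM of the restored genes of each subclass in each library (bars start at 0, blue control, red cerulein). Transporters sum to 268.4 to 321.6 in controls and 57.3 to 96.0 in cerulein and creatine enzymes to 173 to 323 and 61.4 to 102, while the tRNA synthetases sum to 59.1 to 108 and 96.7 to 144.

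Genes with and without an exact match to the core were found on both sides of zero. Of the 6 tested genes with the core in the window, 1 fell and none rose, and their log2 fold changes ran from -1.55 to 0.90. Of the 26 tested genes with a window but without the core, 5 fell and 1 rose, from -3.58 to 1.92. The medians were 0.25 and 0.12.

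Libraries of the same group also differed over the list. Cerulein 1 was the highest of the 3 cerulein libraries for 30 of 36 genes, against 37.6% of all genes tested, and Cerulein 3 the lowest for 24 of 36, against 32.3%. The median deviation of the 36 genes from their group mean was 0.33 on the log2 scale in Cerulein 1, -0.11 in Cerulein 2 and -0.21 in Cerulein 3, while the median over all genes tested was within 0.01 of zero in each. Asns, Sars, Phgdh, Slc7a5 and Cebpb all showed it, with Cebpb at 20.1 FPKM in Cerulein 1 against 5.40 and 5.97 in Cerulein 2 and 3. In the same libraries the summed acinar markers were highest in Cerulein 1 (112100 FPKM, against 85320 and 61300) and the summed macrophage markers lowest (70.2, against 147 and 131.8), and their part in this was not tested. Among controls, Control 3 was the highest for 19 of 36 genes, against 32.0% of all genes tested. The controls spread more than the cerulein libraries, with a median ratio of highest to lowest FPKM + 1 of 2.09 for the members against 1.55, and of 1.91 against 1.39 for all genes tested.

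**Figure D5:**
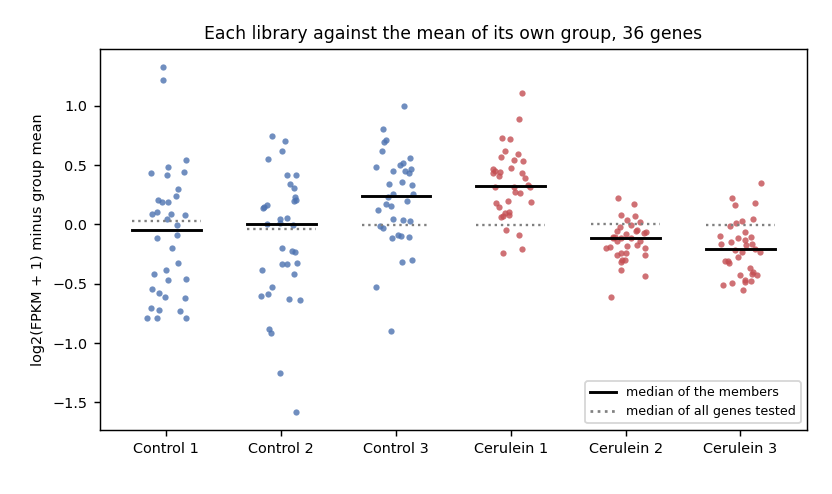
Log2(FPKM + 1) of each of the 36 genes minus the mean of its own group, by library, with the median of the 36 genes (solid) and of all genes tested (dotted). The median is 0.33 in Cerulein 1 and -0.21 in Cerulein 3, and 0.24 in Control 3.

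Other genes of these pathways were read from 5 further lists. Of 105 genes, 103 had an entry in the table and 61 were tested, of which 2 rose and 7 fell. Over all genes tested 6.55% rose and 5.34% fell. The median of the 61 was -0.07, or 0.42 when scaled outside the enzymes. Among 15 tested genes of the stress response outside the list, 2 fell, 1 rose and 12 missed the threshold. Their median was -0.35, or 0.16 when scaled outside the enzymes. Fgf21, a hormone that pancreas secretes and that Atf4 can raise, had 25.9, 19.1 and 29.9 FPKM in controls and 3.14, 3.35 and 1.31 in cerulein, with no overlap, and fell by 2.88 (SE 0.35, limma adjusted p = 0.00133). Ppp1r15b, the constitutive partner of the eIF2 phosphatase, had 13.7, 24.9 and 21.0 FPKM and then 6.41, 7.61 and 7.44, and fell by 1.32 (limma adjusted p = 0.0238). Nfil3, a basic leucine zipper repressor, rose from 2.91 to 3.34 FPKM in controls to 9.47 to 14.2 in cerulein (log2 fold change 1.54, limma adjusted p = 0.0105).

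The other amino acid and creatine transporters numbered 14 tested, of which 4 fell and 1 rose. The remaining 9 missed the threshold, and the median was -0.30, or 0.17 when scaled outside the enzymes. Slc38a3, a glutamine carrier of the same family as Slc38a5, went from 96.4, 73.3 and 41.6 FPKM to 25.8, 11.8 and 9.05 (-2.16 on the log2 scale, SE 0.44, limma adjusted p = 0.0135). The glycine transporter Slc6a9, whose exons overlap other genes, fell by 1.98 (limma adjusted p = 0.0119). Slc7a1, the carrier of cationic amino acids, fell by 1.437 (limma adjusted p = 0.0180), and Slc1a4, an exchanger of alanine, serine and cysteine, by 1.16 (limma adjusted p = 0.0259). The one that rose was Slc38a1, another glutamine carrier, named after its value was seen, from 0.621 to 0.912 FPKM in controls to 2.03 to 3.64 in cerulein (log2 fold change 1.15, limma adjusted p = 0.0353).

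Of 17 tested enzymes of amino acid, one-carbon and creatine metabolism outside the list, none passed by limma, 5 had an unadjusted p under 0.05 and limma-voom called 1 lower, with a median of 0.06. Of 7 tested cytosolic synthetases and scaffold proteins outside the list, none passed by limma or limma-voom and none had an unadjusted p under 0.05, with a median of 0.24. Of 8 tested mitochondrial synthetases, 1 fell, with a median of 0.04. It was Lars2, listed at 13020, 27540 and 12460 FPKM in controls and 3478, 1317 and 1312 in cerulein, levels far above those of any other synthetase. Part of the mouse Lars2 transcript resembles ribosomal RNA, so its value is uncertain.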

How the data were processed

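RNA sequencing of 6 libraries was taken from 1 deposited table of 50660 transcripts. The values are of a kind other than plain FPKM: the authors deposited FPKM in which a spreadsheet left 18.1% to 21.4% of values per library without a usable decimal mark, as the digits of the deposited values show. A further 16.6% to 21.2% of values per library were written with an exponent. These were taken to have lost their mark too and were read with a lower exponent, or as 0 where tiny. Per the submitters' processing notes, fastp, HISAT2, featureCounts and DESeq2 were used with build mm10. Versions, and the step that gave FPKM, are not given in the sources used here.

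Values were restored in Python 3.11.15 (numpy 2.4.6). FPKM times effective length (GENCODE M21 lengths) was taken as a whole number of fragments, 73.5% to 78.5% of fitted values lying within 0.01 of one. For genes with values of 1 transcript, lengths up to 2000 bases from the annotated one were also tried. Slc7a8 (-51 bases), Slc38a2 (-34), Atf4 (-1), Shmt2 (16), Ddit4 (-70) and Lars (-124) were placed at such a length. A lost value of 6 digits has 3 placements and one of 5 digits has 2. They were weighed by whole fragments and by replicates of the same group (spread 0.6 log2 units), and accepted at a posterior of 0.95. All 379 values placed in a check of 420 intact ones were right. Only 50 of those tried had a true level of 10 to under 100 FPKM, of which 44 were placed. A simulation of 3000 genes removed 16720 marks, of which 97.1% were put back, 99.94% of these correctly, and limma recovered 70% of changed genes at a log2 change of 1.5, 94.6% at 2 and 100% at 3, while 6.29% of its calls were unchanged genes. Whether these rates apply to the deposited values was not tested. Restoring favours genes whose replicates lie close together, so p-values may be too small. Of 8940 genes that could pass the filter, 6934 were restored and tested.

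limma 3.58.1 (R 4.3.3; lmFit, eBayes with trend) was fitted to log2(FPKM + 1) of all 6 libraries without covariates, as planned for FPKM. Printed errors are SD or SE. Values by library are given for every gene past the threshold, for genes whose placements cannot overlap and for the most abundant gene of each subclass, and for further genes where they help. Of other lists 4 called genes at most are named, by adjusted p, beside 1 more transporter named after its value was seen. Genes and lists were chosen with earlier results of these data known. Alternatives covered the pseudocount, filter, scale, restoration, a replicate block, each library left out and, added after seeing the data, limma-voom, a scale to all restored genes and one to the median gene. Coordinates and exon overlaps are from GENCODE M21 (GRCm38, the mm10 assembly). Promoters are from RefSeq, GRCm38.p6, and 6 of the 45 genes had none. Not every promoter site is reported here.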

Additional observations from a re-analysis of the deposited data

How the results depend on the processing

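Of 539 values of single genes under 17 alternatives, 433 kept direction and side of the threshold, 28 lost and 38 gained a call, and 40 turned sign. The cause was not tested. Slc38a5 and Slc7a8 passed under every alternative that gave a value, which were 15 and 14 of the 17. The genes of the list that rose and fell numbered 1 and 7. They numbered 0 and 6 with a pseudocount of 0.1, 0 and 4 with no filter, 0 and 6 with the stricter filter, 2 and 7 at a posterior of 0.99, 1 and 4 at a replicate spread of 1.5 (16 genes tested), 0 and 0 where all values had kept their mark (1 gene tested), 2 and 8 by limma-voom, 9 and 5 scaled outside the enzymes, and 27 and 2 scaled to the sum of all restored genes, which moved the median of all genes to 1.34. Scaled to the median gene they numbered 1 and 7. Leaving out 1 library each gave 0 to 3 and 2 to 8, with 2 that fell without Cerulein 2 or without Cerulein 3. By restored values 5 genes lay above and 8 below every control, and whatever the placement 1 and 0 did.

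Same-numbered libraries deviated together in only some pairs (correlations 0.16, 0.132 and -0.0455), against -0.182 to 0.102 for libraries of different numbers. These weak correlations cannot settle whether the numbers pair the samples. With a replicate block 2 genes rose and 8 fell, 417 and 351 over all genes, and 2 and 7 in the other lists.

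Over all genes 454 rose and 370 fell. With a pseudocount of 0.1 there were 260 and 299, with no filter 210 and 129, with the stricter filter 209 and 317, with intact values only 6 and 17, at a spread of 1.5 239 and 211, scaled outside the enzymes 1760 and 189, scaled to all restored genes 5597 and 43, and leaving out 1 library 123 to 930 and 78 to 616. In the other lists 2 rose and 7 fell. There 2 and 1 did with no filter, 1 and 6 with the stricter filter or a posterior of 0.99, 0 and 1 with intact values, 1 and 4 at a spread of 1.5, 3 and 9 by limma-voom, 16 and 4 scaled outside the enzymes, 45 and 2 scaled to all restored genes, and 0 to 8 and 2 to 9 leaving out 1 library.

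Scaled outside the enzymes, log2 fold changes turned to 0.16 for Aldh18a1, 0.36 for Asns, 0.28 for Atf4, 0.39 for Mars1, 0.66 for Mthfd2, 0.43 for Phgdh and 0.0119 for Slc7a5. Scaled to all restored genes they were 1.20 for Aldh18a1, 1.48 for Asns, 1.40 for Atf4, 0.44 for Gamt, 0.032 for Gatm, 1.41 for Mars1, 1.74 for Mthfd2, 1.53 for Phgdh, 0.85 for Slc1a5, 0.47 for Slc38a2 and 1.10 for Slc7a5. By limma-voom they were -0.31 for Cebpg, -0.0042 for Ddit4, 0.0006 for Mthfd2 and -0.0165 for Slc7a11. Ddit4 had -0.0048 scaled to the median gene and Mthfd2 0.0029 with a pseudocount of 0.1. Leaving out 1 library gave -0.0303 to 0.68 for Cebpg, -0.10 to 0.11 for Ddit4, -0.10 to 0.60 for Eprs, -0.17 to 0.46 for Lars, -0.29 to 0.50 for Mthfd2, -0.61 to 0.0279 for Phgdh, -0.16 to 0.32 for Ppp1r15a, -0.17 to 0.31 for Shmt2, -0.29 to 0.47 for Slc7a11 and -0.11 to 0.92 for Yars. The few fragments behind 1 FPKM limit the control values of low genes: at 2000 bases it was 6.45 to 8.09 fragments there.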
